A study of Drosophila melanogaster with 3 samples.

Results

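Divergent promoters are places where 2 protein-coding genes begin close together on opposite strands and are transcribed away from each other. The peaks described here are the lines of the authors' thresholded Smox-GFP peak list on 2L, 2R, 3L, 3R and 4 whose summit lay within 500 bp of annotated transcription start sites (TSSs) of at least 2 different protein-coding genes on opposite strands. They numbered 417 of the 6622 lines of the list (6.3%), and 7.97% of its 5233 autosomal lines. The rule used only the position of the summit and the gene annotation, not the strength of the peak. The samples formed 1 group of 3 biological replicates of whole white prepupae, males and females pooled, from a transgenic Drosophila melanogaster line that stably expresses Smox with GFP fused to its C terminus; chromatin was immunoprecipitated with an antibody against GFP. All 3 replicates carried the same fusion, whole animals mix all cell types, and no untagged or untreated group was analysed, so values are set against the other peaks of the same lists. Coordinates are those of dm6 (Release 6 of the fly genome).

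Smox (Smad on X) is the fly member of the receptor-regulated SMAD proteins that carry Activin-type TGF-beta signals. It is phosphorylated by the type I receptor Baboon, joins the co-SMAD Medea and enters the nucleus, and SMAD proteins bind DNA through short motifs such as the SMAD box. White prepupae are animals at the onset of metamorphosis, when ecdysone acts, and Activin signalling through Baboon is known for raising the competence of fly neurons to respond to that hormone. Divergent gene pairs are common in the compact fly genome, and many of them serve general cell functions. Their promoters are known for core elements such as the DNA replication-related element (DRE), which the factor DREF binds and which contains the core bound by the insulator protein BEAF-32.

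The sequences below lie 75 bp either side of the summit at the strongest divergent promoter peaks that held an element found more often at divergent than at single-strand promoter peaks, so they show the DNA on which the sequence comparisons rest. They are read from the RefSeq Release 6 assembly on the plus strand, 5′ to 3′. Capitals mark the DRE (TATCGATA), the BEAF-32 core (CGATA, or TATCG where it lies on the other strand) and the TATA string (TATAAA).
Chro and Ssl1, chr3L:22878823-22878973: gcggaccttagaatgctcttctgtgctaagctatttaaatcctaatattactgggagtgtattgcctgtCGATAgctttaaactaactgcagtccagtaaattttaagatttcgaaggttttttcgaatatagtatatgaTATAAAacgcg
Tcs5 and CHMP2B, chr3L:5139429-5139579: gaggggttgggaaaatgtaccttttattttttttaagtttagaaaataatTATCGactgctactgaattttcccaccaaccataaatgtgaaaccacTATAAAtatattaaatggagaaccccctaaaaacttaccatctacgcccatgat
Fbw5 and CG9147, chr2L:6066021-6066171: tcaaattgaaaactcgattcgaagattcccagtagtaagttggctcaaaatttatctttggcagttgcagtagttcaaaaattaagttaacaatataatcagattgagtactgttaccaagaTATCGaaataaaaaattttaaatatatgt
mRpL23 and CG9004, chr3L:2373538-2373688: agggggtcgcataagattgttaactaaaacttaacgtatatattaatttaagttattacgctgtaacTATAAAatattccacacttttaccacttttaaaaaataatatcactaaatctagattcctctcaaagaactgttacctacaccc
CG32856 and Rbf2, chr3R:15965279-15965429: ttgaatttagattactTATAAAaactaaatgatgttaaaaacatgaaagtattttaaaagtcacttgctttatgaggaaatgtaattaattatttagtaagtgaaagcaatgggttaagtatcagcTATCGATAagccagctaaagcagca
CG7369 and its minus-strand partner, chr3L:22741592-22741742: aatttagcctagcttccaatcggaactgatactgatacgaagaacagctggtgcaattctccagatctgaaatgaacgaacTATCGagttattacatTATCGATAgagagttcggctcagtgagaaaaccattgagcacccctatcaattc
RpL34a and Trmt61, chr3R:26059220-26059370: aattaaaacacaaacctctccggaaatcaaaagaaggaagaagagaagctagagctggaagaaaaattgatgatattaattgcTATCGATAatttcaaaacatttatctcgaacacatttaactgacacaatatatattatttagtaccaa
The first is the strongest divergent promoter peak of the list and held a BEAF-32 core and a TATA string. In the second the summit lay nearly midway between both TSSs. The last 3 held a DRE, inside which the BEAF-32 core is found on both strands.

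The 417 peaks covered 388 different gene pairs, of which 28 had more than 1 line in the list. In 393 of them exactly 2 genes had a TSS within 500 bp, and at most 10 genes did, at the alternative exons of mod(mdg4) that Ensembl lists as separate genes. By chromosome arm, the share of peak lines at divergent promoters was 9.64% on 3R (141 peaks), 8.51% on 2L (102 peaks), 6.9% on 3L (102 peaks) and 6.6% on 2R (71 peaks). Chromosome 4 gave 1 such peak, between CG11076 and ATPsynbeta, of 19 lines. When each replicate's list was limited to its strongest 6622 regions, 510, 486 and 580 regions met the rule in replicates 1, 2 and 3, a mean of 525 ± 48.8 (SD, n = 3). All 3 replicate lists gave more such regions than the 417 of the thresholded list. In the pooled list a further 201 regions below the authors' threshold met the rule, the strongest of them at rank 6698.

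The arrangement was almost always head to head. The pair's TSSs pointed away from each other at 409 of the 417 peaks (98.1%), and the 5′ ends of the genes overlapped at the other 8. The gap between the TSSs of head-to-head pairs had a median of 300 bp, quartiles of 228 and 413 bp, and a range of 8 to 831 bp. At 340 of these peaks (83.1%) the summit lay between both TSSs, a median of 64.5 bp from the midpoint. The nearest TSS was a median of 99 bp from the summit, and the farther TSS of the pair 218 bp. Summits of the 1148 autosomal single-strand promoter peaks, which had TSSs of protein-coding genes within 500 bp on 1 strand only, lay a median of 198 bp from the nearest TSS. A close pair leaves less room far from any TSS, so these distances follow in part from the rule itself. The summit base lay outside any protein-coding transcript at 281 of the 417 peaks (67.4%), in a 5′ UTR at 73 (17.5%), in an intron at 56 (13.4%), in a coding exon at 5 and in a 3′ UTR at 2. Single-strand summits lay outside transcripts at 49.6% and in introns at 34.8%.

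**Figure D1:**
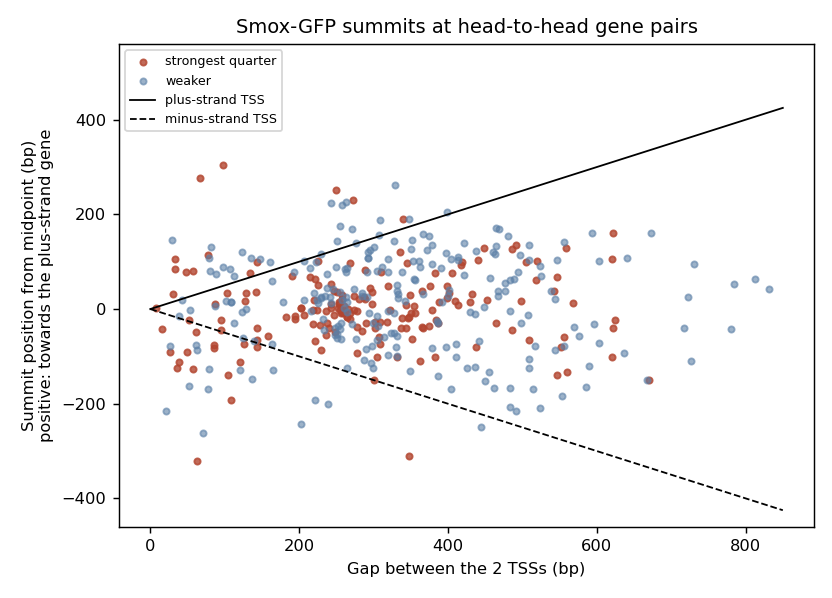
Position of the summit at 409 head-to-head pairs. The x axis gives the gap between the TSSs in bp and the y axis the summit's distance from the midpoint in bp, positive towards the plus-strand gene; each point is a peak, red for the strongest 25% of autosomal lines and blue for the rest, and the lines mark the TSSs. Most points, 340 of them, lie between the lines, and most of those outside are at gaps of at most 200 bp. The rule leaves more room outside the lines at narrow gaps than at wide ones.

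The position of the summit moved with the gap, in part because of the rule itself. Where the TSSs were at most 100 bp apart the summit was between them at 22% of 41 peaks, a median of 85.5 bp from the midpoint. For gaps above 200 and up to 300 bp it was between them at 89.6% of 125 peaks, a median of 36 bp from the midpoint. For gaps above 400 and up to 600 bp it was between them at 98.9% of 92 peaks, at 92.8 bp from the midpoint. A summit outside the pair can meet the rule only if the farther TSS is still within the rule's limit. No such summit is possible where the gap is wider than that limit, and little room is left just below it. At the narrowest gaps most of the allowed stretch lies outside the pair. How far this sets the shares was not tested. The narrowest gap among the strongest 25% was that of SerRS, the cytosolic seryl-tRNA synthetase, and CG17260, at 8 bp; the pooled rank was 534 and the replicate ranks were 640, 607 and 365. E(z), the histone H3 lysine 27 methyltransferase of the Polycomb system, and Cnep1r2 followed at 16 bp, with a pooled rank of 1479. CG8892 and CG34126, 27 bp apart, had a pooled rank of 257. The widest gaps among the strongest 25% were 622 bp (Elp6 and Dic1), 625 bp (CG43116 and E(spl)mdelta-HLH, a bHLH repressor of the Notch pathway) and 670 bp (Nepl19 and Nepl20, neprilysin-like genes). Elp6 and Dic1 also had a stronger line, of pooled rank 196, at other TSSs of the same genes with a gap of 350 bp.

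The limit of 500 bp lies within a run of close values. The members nearest to the limit had their farther TSS at 497 bp (vari and CG9328, pooled rank 2526), 484 bp (Nepl19 and Nepl20, pooled rank 1033) and 484 bp (tank and CG12194, pooled rank 126). Just outside it were CG15097 and CG15082 at 502 bp (pooled rank 1703), Mondo and crc at 503 bp (pooled rank 3757), and beta4GalNAcTB and Cpsf100 at 505 bp (pooled rank 4219).

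Divergent promoter peaks were stronger than single-strand ones. Strength here means the rank by the authors' score within a list, since the scale of the score is not stated; the read depth behind it is unknown. Of the divergent promoter peaks, 178 of 417 (42.7%, 95% Wilson interval 38 to 47.5) were among the strongest 25% of autosomal lines, against 346 of 1148 single-strand peaks (30.1%, 27.6 to 32.9). The odds ratio was 1.73 (two-sided Fisher's exact test, p = 5.21e-06). Here and below this p covers the sampling of peaks, not of animals, and the intervals cover counting error only. In the replicate lists the share was 37.1, 39.9 and 40% at divergent promoters, against 28.6, 27.9 and 28.9% at single-strand promoters, a difference of 10.6 ± 1.87 percentage points (SD, n = 3). The divergent share was higher in 3 of 3 replicates and the replicate shares did not overlap; an exact sign-flip test over 3 replicates cannot give a p below 0.25. Among peaks that the other 2 replicates both covered, the difference was 8.08, 7.35 and 8.35 percentage points without replicates 1, 2 and 3, against 12.5 over all peaks, and it stayed past the threshold each time. It was 22.8 percentage points with a rule of 250 bp. Autosomal peaks with no such TSS near the summit stood at 21.4%.

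The median pooled rank was 2099 at divergent promoters, 3012 at single-strand promoters and 3500 at the other autosomal peaks. Among the strongest 100 lines of the list, 21 were divergent promoter peaks, 29 were single-strand peaks and 75 in all were autosomal. Down the pooled list the share of autosomal regions at divergent promoters was 17.8% for ranks 1 to 500, 12.7% for ranks 501 to 1000, 6.91% for ranks 2001 to 4000 and 4.88% for ranks 4001 to 6622. Below the threshold it was 2.87% for ranks 6623 to 10000 and 0.38% for ranks 20001 to 30000. The single-strand share was 36.2% in the first of these bins and 9.48% in the last. The ratio of the first bin to the last was thus far wider for divergent than for single-strand promoters, in the pooled list and in each of the 3 replicate lists.

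The strongest divergent promoter peaks held their places in every replicate. The pooled list was derived from all 3 replicates, so its ranks and theirs are not independent. Chro and Ssl1 (chr3L:22878681-22879165) had a pooled rank of 9 and replicate ranks of 10, 10 and 8; Chro encodes the chromodomain protein Chromator and Ssl1 a subunit of the general transcription factor TFIIH. The peak between mRpS23, a mitochondrial ribosomal protein gene, and CenG1A (chr2L:13835229-13835670) had a pooled rank of 12 and replicate ranks of 11, 13 and 12. Tcs5 and CHMP2B, a subunit of the ESCRT-III membrane-remodelling complex, shared a peak of pooled rank 15 (chr3L:5139290-5139713) with replicate ranks of 18, 26 and 10.

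Fbw5 and CG9147 (pooled rank 20), Art3, an arginine methyltransferase gene, and mRpS10 (23), Pex11ab, a peroxisome division gene, and CG8320 (26), and CG8372 and CG8360 (39) followed. The next pairs were Pdrg1 and Pal1 (44), mRpL23 and CG9004 (47), CG3437 and CG3552 (48), CG5611 and Mtl, a Rac-like GTPase gene (60), and CG11309 and CG7632 (70). Atat, an alpha-tubulin acetyltransferase gene, and Shc, an adaptor of receptor tyrosine kinases, had pooled rank 72, CG5757 and CG5098 73, Mkk4, a kinase upstream of JNK, and SLIRP2 74, and Mnat9 and CG1792 77. Lon, a mitochondrial protease gene, and PIG-F had pooled rank 89, CG10747 and Pyroxd1 91, CG13390 and CG17294 94, and Hrd3 and PTPMT1 95. These 20 pairs were all head to head, with gaps of 33 to 505 bp, and no replicate ranked any of them below 125. The summit lay between the TSSs at 14 of the 20.

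Overlap of the peaks with the replicate lists was high. The pooled list behind the peaks was derived from all 3 replicates, so high coverage follows in part from how the peaks were selected. A peak counts as covered by a replicate when a region among that replicate's strongest 6622 overlaps it by at least 1 bp. All 3 replicates covered 331 of the 417 divergent promoter peaks (79.4%, interval 75.2 to 83.0), against 829 of 1148 single-strand peaks (72.2%, interval 69.6 to 74.7), with a background of 71.7% over all autosomal lines. The odds ratio was 1.48 (two-sided Fisher's exact test, p = 0.00407). A further 71 divergent promoter peaks were covered by 2 replicates, 15 by 1 and none by 0. Where a replicate covered the peak, its summit lay a median of 13, 16 and 19 bp away in replicates 1, 2 and 3.

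The difference in coverage moved with strength and with 1 replicate. Without replicate 3 it was 4.03 percentage points (p = 0.0788, Fisher's exact test), so the call was lost, and with the whole replicate lists it was -1.22 percentage points (p = 0.301, Fisher's exact test). It was 12.9 percentage points with a rule of 250 bp and 17.4 with both classes limited to summits within 150 bp of a TSS, and passed the threshold in both. Over 4 equal classes of autosomal pooled ranks, from strongest to weakest, coverage in all 3 replicates was 94.4, 96.1, 62.7 and 24.1% at divergent promoters, against 98.3, 95.3, 66.2 and 19.5% at single-strand promoters. Within these classes the divergent share was the higher one in 2 and the lower one in 2.

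Seen from the genes, a summit was more frequent near genes with a divergent neighbour. Of 2129 plus-strand autosomal genes with a head-to-head partner within 1000 bp, 475 had an autosomal summit within 500 bp (22.3%). The comparison genes were plus-strand genes with no opposite-strand TSS of another protein-coding gene within 1000 bp, and 380 of these 3708 had such a summit (10.2%). Genes with an opposite-strand TSS that close only in another arrangement were in neither set. The odds ratio was 2.52 (two-sided Fisher's exact test, p = 9.19e-35). On the minus strand the shares were 22.6% and 11.2% in the same order. In the replicate lists the plus-strand share was 26.6, 25.4 and 29.8% with a partner, against 10.4, 11.2 and 10.9% without, a difference of 16.5 ± 2.37 percentage points (SD, n = 3) that was positive in 3 of 3 replicates. The window of a gene with a close partner also holds the partner's TSS, and how far this sets the difference was not tested.

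Both the frequency and the strength of peaks differed by the gap between the genes. Of 2264 annotated head-to-head pairs, 422 (18.6%) had a summit within 500 bp of both TSSs, and in the replicate lists 22.6 ± 2.61% (SD, n = 3). The share was 15.5% for gaps of at most 100 bp, 16.5% up to 200 bp, 27.8% up to 300 bp, 27.1% up to 400 bp and 19.6% up to 600 bp. It was 3.87% for gaps above 600 and up to 1000 bp, where the stretch within 500 bp of both TSSs is shortest. The Wilson interval was 12.1 to 19.6% for the narrowest gaps and 23.9 to 32.1% for gaps above 200 and up to 300 bp. Strength ran differently: the share of members among the strongest 25% was 56.1% for gaps of at most 100 bp, 46.2, 46.4 and 44.6% up to 200, 300 and 400 bp, and 31.5% for gaps above 400 and up to 600 bp. Over the same classes the median pooled rank went from 1285 for the narrowest gaps to 2832, and to 3532 above 600 bp.

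**Figure D2:**
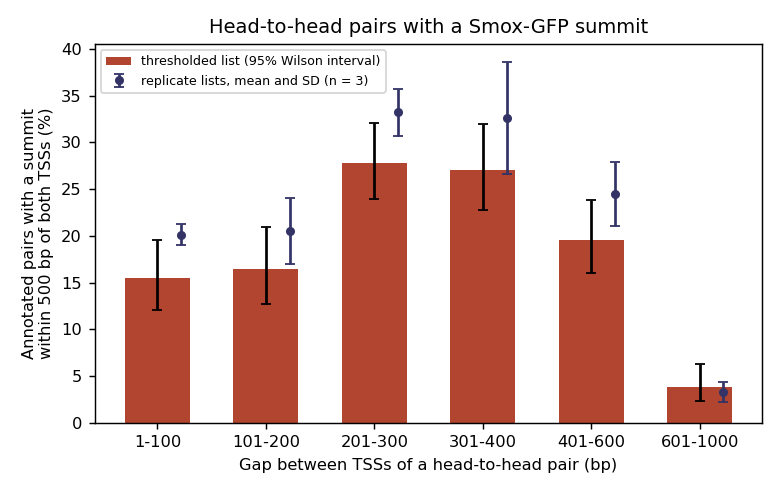
Percent of annotated autosomal head-to-head gene pairs with a Smox-GFP summit within 500 bp of both TSSs, by the gap between the TSSs in bp. Bars are the thresholded list with 95% Wilson intervals and points are the mean and SD of the 3 replicate lists; the bars are tallest for gaps of 201 to 400 bp, at 27.8 and 27.1%.

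Short sequence elements differed between divergent and single-strand promoter peaks. Each of 18 fixed strings was searched on both strands, 75 bp either side of the summit, and compared by two-sided Fisher's exact tests with Benjamini-Hochberg adjustment over the 18; 6 passed 0.05 (33.3% of those tested), 3 more frequent and 3 less frequent at divergent promoters. A match describes these letters in this window and is not evidence of a bound site.

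The 3 more frequent strings have the letters of core promoter elements or of part of such an element. The DRE (TATCGATA) was found at 23 of 417 divergent promoter peaks (5.52%), against 27 of 1148 single-strand peaks (2.35%), with an adjusted p of 0.0133 by Fisher's exact test. The BEAF-32 core (CGATA, which the DRE contains) was found at 31.2% of divergent and 21.7% of single-strand peaks (adjusted p = 0.00126, Fisher's exact test). Outside a DRE it was found at 27.1% and 20.6% in the same order (p = 0.00747, Fisher's exact test, unadjusted). The TATA string TATAAA was found at 36.9% of divergent and 29.1% of single-strand peaks (adjusted p = 0.0133, Fisher's exact test). At the other autosomal peaks TATAAA was at 33.1%, above the single-strand share and thus not limited to promoters. The DRE was at 0.164% and the BEAF-32 core at 14.1% of those other peaks. Differences between divergent and single-strand peaks had the same sign in all 3 replicate lists. Their means were 2.72 ± 0.408 percentage points for the DRE, 9.55 ± 0.724 for the BEAF-32 core and 7.88 ± 0.326 for TATAAA (SD, n = 3).

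The DRE and BEAF-32 differences depended on the distance to the TSS and on the width of the windows. When both classes were limited to summits within 150 bp of a TSS, the DRE was found at 6.5% of 323 divergent and 5.16% of 426 single-strand peaks (adjusted p = 0.651, Fisher's exact test). The BEAF-32 core was then at 33.7% and 31.7% in the same order (adjusted p = 0.731, Fisher's exact test), and TATAAA at 35.9% and 24.4% and still past the threshold. With a rule of 250 bp in place of 500 bp 251 peaks remained and none of the 3 was called by Fisher's exact test. The difference was then 1.47 percentage points for the DRE (adjusted p = 0.505, Fisher's exact test), 5.14 for the BEAF-32 core (adjusted p = 0.245, Fisher's exact test) and 7.14 for TATAAA (adjusted p = 0.0919, Fisher's exact test), the last close to its 7.84 at 500 bp. With windows of 150 bp either side in place of 75 bp, the differences were 11.3 percentage points for the DRE, 18.6 for the BEAF-32 core and 7.9 for TATAAA, all 3 called. The DRE call was also lost without replicate 3 (difference 2.21 percentage points, adjusted p = 0.0988, Fisher's exact test). Over windows of the same length at all 15977 autosomal TSSs the shares were 5.3% for the DRE, 30.2% for the BEAF-32 core and 22.5% for TATAAA. At the midpoints of the 1842 head-to-head pairs without a summit they were 6.19, 31.7 and 32.2%. At the midpoints of the 422 pairs with a summit they were 5.45, 27.7 and 33.4%, so only TATAAA was the higher there, without a test. The DRE and BEAF-32 shares at pairs without a summit lay within the Wilson intervals of the divergent promoter peaks (3.7 to 8.14% and 26.9 to 35.8%). Those intervals are for windows centred on summits and not on midpoints.

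The strongest examples were named by rank. The DRE was in the windows of CG32856 and Rbf2, a retinoblastoma-family repressor gene (pooled rank 524), and of CG7369 and its minus-strand partner (784). The BEAF-32 core was at Chro and Ssl1, Tcs5 and CHMP2B, and Fbw5 and CG9147, and TATAAA at Chro and Ssl1, Tcs5 and CHMP2B, and mRpL23 and CG9004, as printed above.

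The strings found less often at divergent promoters included the SMAD box. GTCT, the SMAD box, was found at 149 of 417 divergent promoter peaks (35.7%), against 491 of 1148 single-strand peaks (42.8%), with an adjusted p of 0.0374 by Fisher's exact test; other autosomal peaks stood at 41.4% and all autosomal TSS windows at 49.4%. In the replicate lists the share was 38.6, 35.8 and 37.4% at divergent promoters, against 40, 44.7 and 42.9% at single-strand promoters. The difference in replicate 1 was the smallest of the 3. At the midpoints of head-to-head pairs the SMAD box share was 39.6% without a summit and 42.2% with one. Within 150 bp of a TSS the shares were 35.3% and 43.9%, a difference of -8.6 percentage points, and the call was lost (adjusted p = 0.0711, Fisher's exact test). With windows of 150 bp either side the difference was -0.58 percentage points (adjusted p = 0.904, Fisher's exact test).

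GAGAG, the string bound by the GAGA factor Trl, was found at 9.83% of divergent and 19.4% of single-strand peaks (adjusted p = 7.29e-05, Fisher's exact test). The control string GGAGA, which was included as a control and shares letters with GAGAG, was found at 7.91% and 14.1% in the same order (adjusted p = 0.0057, Fisher's exact test). The control string thus passed the test as well. At the midpoints of head-to-head pairs GAGAG was at 11.7% without a summit and 9.72% with one. The control string was at 12.6% and 7.35% in the same order. GAGAG kept its call within 150 bp of a TSS and in all other settings tried; with windows of 150 bp either side its difference was -22.2 percentage points, against -9.59, and that of the control string -11.5, against -6.2.

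The other 12 strings did not pass. The nearest to the threshold were the homeodomain core TAATTA at 18.9% and 14.1% and the GATA string AGATAA at 9.11% and 13.3%, divergent before single-strand (adjusted p = 0.0525 for each, Fisher's exact test). M1BP's element, GGTCACAC, was at 3.84% and 1.92%, and Ohler motif 7, CATCNCTA, at 5.04% and 2.87%, in the same order (adjusted p = 0.0764 for each, Fisher's exact test). The GC-rich SMAD element GGCGCC was found at 1.44% of divergent and 2.44% of single-strand peaks, and the Mad site GCCGNCGC at 0.48% and 0.697%.

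**Figure D3:**
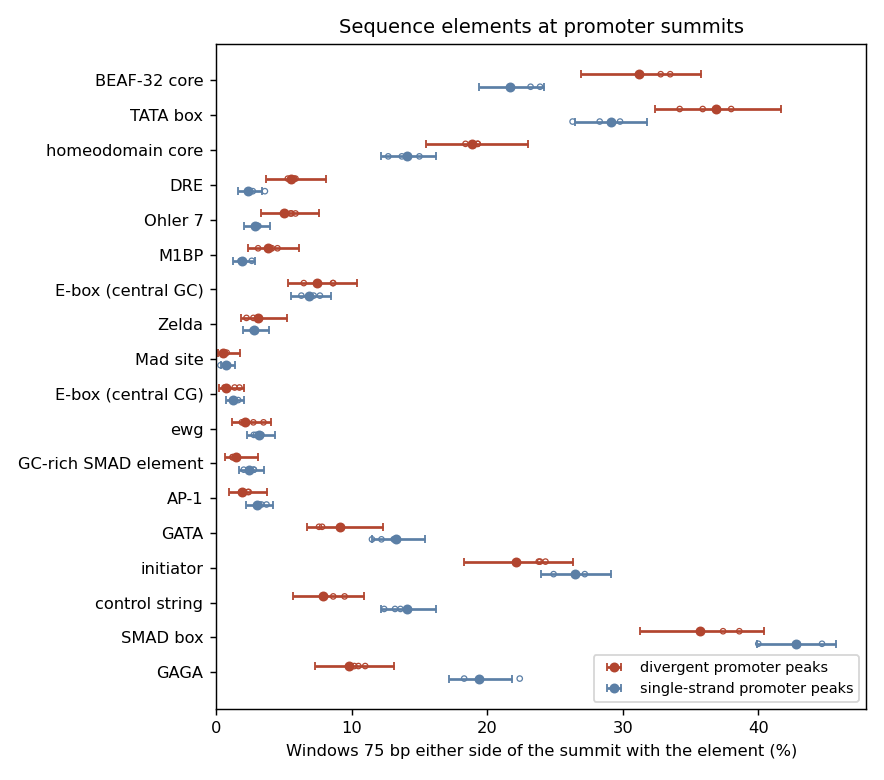
Percent of windows, 75 bp either side of the summit, with each of 18 sequence elements at divergent (red) and single-strand (blue) promoter peaks. Filled points are the thresholded list with 95% Wilson intervals and open circles the 3 replicate lists; the BEAF-32 core (31.2 and 21.7%) and GAGA (9.83 and 19.4%) are farthest apart in opposite directions.

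Base composition differed between the classes and stands beside these counts. The mean GC content of the windows was 32.0% at divergent promoters, 35.1% at single-strand promoters and 32.7% at the other autosomal peaks. In the replicate lists the difference, divergent minus single-strand, was -2.89 ± 0.558 percentage points (SD, n = 3), with the same sign in 3 of 3 replicates. Among windows under 30% GC, TATAAA was at 45.5% of divergent and 46.1% of single-strand peaks, and GAGAG at 5.24% and 9.12%. Among windows of 30 to 40% GC, TATAAA was at 37.7% of divergent and 27% of single-strand peaks, and GAGAG at 14.5% and 18.4%. Among windows of 40% GC or more, TATAAA was at 10.4% and 11.3%, and GAGAG at 11.9% and 33.9%. TATAAA was thus more frequent at divergent than at single-strand promoters only in the middle class. The GAGAG shares were farthest apart at 40% GC or more. The BEAF-32 core was at 26.2% and 18% under 30% GC, at 31.4% and 21.9% between 30 and 40%, and at 44.8% and 25.9% at 40% or more. In the same order, the DRE was at 4.71% and 1.34% under 30% GC and at 3.77% and 2.53% between 30 and 40%. At 40% GC or more it was at 11.9% and 3.32%. The SMAD box was at 30.9% and 38.9% under 30% GC and at 39% and 43% between 30 and 40%. At 40% GC or more it was at 41.8% and 47.2%.

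Among the divergent promoter peaks, the shares of several elements differed by strength in the thresholded list and in each replicate list. A DRE, an M1BP element or Ohler motif 7 was in the windows of 10 of the 178 members among the strongest 25% (5.62%) and of 47 of the other 239 (19.7%). In replicates 1, 2 and 3, on their own ranks, the shares were 6.88, 9.79 and 6.03% among the strongest 25%, against 18.7, 19.2 and 19.8% in the rest. The SMAD box followed the same order, at 27.5% and 41.8% in the thresholded list. TATAAA went the other way in every list, at 41% and 33.9% in the thresholded list and at 42.3, 37.1 and 37.5% among the strongest 25% of the replicate lists, against 35.5, 32.2 and 34.8% in the rest. Single-strand peaks of the thresholded list had a DRE, an M1BP element or Ohler motif 7 at 2.6% and 8.48%, strongest 25% before the rest. Their TATAAA was at 31.5% and 28.1%, the same direction as at divergent promoters. Their SMAD box was at 43.9% and 42.3%, the opposite direction to that at divergent promoters. The mean GC content of the divergent windows was 30.3% among the strongest 25% and 33.4% in the rest, and its part in these counts was not tested. This split was chosen after the values were seen and carries no test.

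Ribosomal protein genes had a higher share at divergent promoter summits than autosomal genes as a whole. Over all 11749 autosomal protein-coding genes, 807 (6.87%) had a TSS within 500 bp of such a summit and 1759 (15%) within 500 bp of any autosomal summit of the list. Of the head-to-head genes among them, 18.8% were at a divergent promoter peak. The lists were drawn by gene symbol and carry counts only, without a test.

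Of 62 autosomal mitochondrial ribosomal protein genes, 19 (30.6%) were at a divergent promoter peak; 49 of the 62 were arranged head to head, of which the 19 are 38.8%. The strongest were mRpS23 (pooled rank 12), mRpS10 (23), mRpL23 (47) and mRpL24, paired with betaggt-I (313, replicate ranks 373, 311 and 276). Of 78 genes with symbols of cytosolic ribosomal proteins, 21 (26.9%) were at a divergent promoter peak, which is 45.7% of the 46 arranged head to head. The 21 include RpLP0-like (pooled rank 3440), which was counted by its symbol alone. RpL32, paired with CG7943, was the strongest (pooled rank 464, replicate ranks 531, 358 and 517). RpL34b (587), RpS27, paired with the nucleoporin gene Nup37 (593), and RpL7, paired with Ripalpha (673), followed. The median pooled rank was 1963 for the mitochondrial and 1716 for the cytosolic ribosomal protein genes, against 1907 over all genes at these peaks. Some autosomal summit lay within 500 bp of 40 of the 78 cytosolic and 21 of the 62 mitochondrial genes, beside 15% of all genes. The higher share of the cytosolic list was thus not limited to divergent promoter peaks.

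The smaller lists held a few genes each. Mediator, the coactivator complex of RNA polymerase II, had 5 of 27 genes at a divergent promoter peak, led by MED30 (pooled rank 372), MED27 (528), MED7 (1316) and MED31 (2636). RNA polymerase subunits had 5 of 28, led by Polr2H (955), Polr3E (1040), Polr2B (1411) and Polr3F (3644). Aminoacyl-tRNA synthetases had 4 of 30, namely SerRS (534), GluProRS (807), AspRS (1175) and ArgRS-m (2634). The shares of these 3 lists were 18.5, 17.9 and 13.3%, beside 6.87% of all genes. Among their genes arranged head to head they were 26.3, 27.8 and 20%, beside 18.8% of all head-to-head genes.

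Respiratory chain genes counted 9 of 78 (11.5%), led by ND-MWFE (782) and ND-SGDH (1262) of complex I and COX5A (1821) and COX7B (1904) of cytochrome c oxidase. DNA replication had 3 of 26 (11.5%), namely PolD2 (590), Mcm2 (1319) and PCNA2 (3498). Autophagy had 2 of 17 (11.8%), Atg2 (533) and Atg17 (572). Among genes arranged head to head the shares were 25% for the respiratory chain, 16.7% for DNA replication and 14.3% for autophagy. The last 2 were below the 18.8% of all head-to-head genes. The proteasome, with Rpn5 (696) and Rpn13 (3508) among 42 genes, and the spliceosome, with snRNP-U1-C (1490) among 29, were below the 6.87% of all genes.

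Of the signalling lists, the Hippo pathway had 3 of 27 genes at these peaks (11.1%, beside 6.87% of all genes). They were the coactivator yki (pooled rank 1397, paired with Gpat4), Hipk (4510) and the kinase wts (5825). These 3 are 23.1% of its 13 genes arranged head to head, beside 18.8% of all head-to-head genes. The TGF-beta and BMP list had 1 of 24 (4.17%), the glypican dlp (1813), and 6 of the 24 had some autosomal summit. The ecdysone list likewise had 1 of 26 (3.85%), the receptor coactivator tai (2521), and 13 of the 26 had some autosomal summit. The TGF-beta and ecdysone lists had 8 and 6 genes arranged head to head, so that 1 gene is 12.5% and 16.7% of them, beside 18.8% of all head-to-head genes. Of the 388 pairs, 76 had 1 gene on a list and 0 had both genes on lists.

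**Figure D4:**
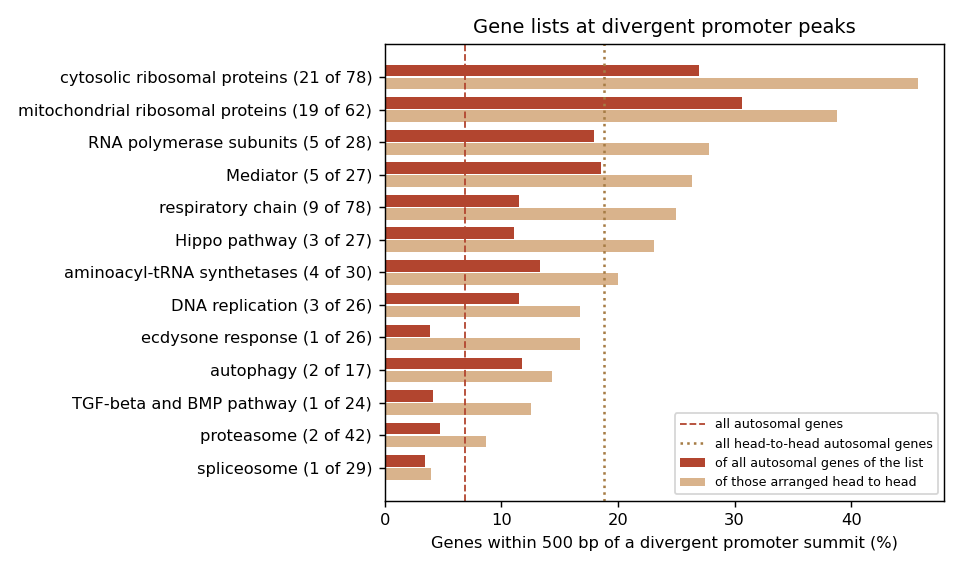
Percent of autosomal genes of each list with a TSS within 500 bp of a divergent promoter summit (dark bars) and the same among list genes arranged head to head (light bars); counts stand beside the names and the vertical lines mark all autosomal genes (6.87%) and all head-to-head autosomal genes (18.8%). The ribosomal lists have the longest bars, 38.8 and 45.7% of head-to-head genes.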

How the data were processed

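ChIP-seq peak lists on dm6 were used from 3 biological replicates and their pool. Per the labels, chromatin was sonicated. The authors deposited for each region an interval, a score used here for ranks only, a −log10 q-value and a summit offset; no source used here names the caller or the threshold. The thresholded list equals the 6622 best-scored pooled regions. Depth is unknown.

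Summits (start plus offset) were set against TSSs of protein-coding genes in Ensembl release 115 (BDGP6.54). Replicate lists were limited to their strongest 6622 regions. Shares were compared between peak classes by two-sided Fisher's exact tests, with Benjamini-Hochberg adjustment over the 18 elements, and Wilson 95% intervals, in Python 3.11.15 with scipy 1.17.1. Windows reached 75 bp either side of the summit. The functions were tested on simulated data. The members, lists, elements and tests were chosen with earlier results of these data known. Genes were named by rank: pairs at the 20 strongest members covered in all 3 replicates, up to 4 genes per list, the 3 strongest members per element called more frequent, and the 3 at each end of the gaps and of the 500 bp limit. An item that this rule names is not reported here. Alternatives changed the rule's width, the window, the TSS set, the peaks kept and the replicates.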

Additional observations from a re-analysis of the deposited data

How the results depend on the processing

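The higher share of divergent than single-strand promoter peaks among the strongest 25% kept its sign and its call under all 16 alternatives (6.03 to 22.8 percentage points; 12.5 as reported, 7.35 to 8.35 without each replicate, 7.49 for peaks covered in all 3 replicates and 7.88 ranked by q-value), as did the higher share of plus-strand genes with a summit where there was a divergent partner, under all 10 (5.06 to 12.9). The difference in coverage ranged from 4.03 to 10 percentage points without each replicate in turn and was -1.22 with whole replicate lists, 12.9 with a rule of 250 bp and 17.4 within 150 bp of a TSS. Of 18 elements, 6 were called; 3 were when both classes were within 150 bp of a TSS, 2 with windows of 50 bp either side, 4 with a rule of 250 bp and 8 to 9 without each replicate. The DRE call was also lost for peaks covered in all 3 replicates (difference 2.48 percentage points) and with 50 bp windows (2.2), the BEAF-32 core with 50 bp windows (5.23), and the SMAD box with a rule of 1000 bp (-4.94), with 1 line per interval (-6.58, close to its -7.04) and with 50 bp windows (-4.13). The GC difference of -3.01 percentage points became -5.08 with a rule of 250 bp, -2.1 with 1000 bp, -5.69 within 150 bp of a TSS, -2.13 for peaks covered in all 3 replicates, and -2.34 to -2.26 without each replicate. A rule of 250 bp left 251 divergent promoter peaks, and leaving out each replicate 348 to 365. The cause of these shifts was not tested. Leaving out each replicate for elements, GC content, strength and the number of peaks was chosen after seeing the data. No paired analysis was possible because there was 1 group. The lists hold no read counts, so what depth limits is unknown.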

Other observations

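Of the 178 divergent promoter peaks among the strongest 25% of autosomal lines, 10 (5.62%) had no overlapping region anywhere in the whole list of 30000 regions of at least 1 replicate, against 5 of 346 single-strand peaks (1.45%) and 2 of 785 other autosomal peaks (0.255%). Replicate 2 lacked 7 of them, replicate 1 lacked 4 and replicate 3 lacked 0. The strongest was at the alternative exons of mod(mdg4), a gene whose mRNAs are known to be made by trans-splicing, between the entries pre-mod(mdg4)-E and pre-mod(mdg4)-Y: its pooled rank was 215 and its ranks in replicates 1 and 3 were 209 and 180, but the nearest region of replicate 2 lay 10597 bp away. The peak of GluProRS and AP-1sigma ranked 864 and 710 in replicates 1 and 3, with the nearest region of replicate 2 at 4142 bp, and that of Nelf-E and RpL14 ranked 849 and 984 in replicates 2 and 3, with the nearest region of replicate 1 at 6287 bp. At DnaJ-H and Sirt1 a region of replicate 2 lay 12 bp away. These peaks were chosen after their values were seen, no test was made, and no explanation was examined.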
